A study of Arabidopsis thaliana with 6 samples.

Results

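The type-A response regulator genes *ARR6* (AT5G62920), *ARR7* (AT1G19050), *ARR15* (AT1G74890) and *ARR16* (AT2G40670) were followed in whole seedlings of *Arabidopsis*. They were picked by locus and are 4 of the 454 genes in the deposited expression table. RNA-seq was done on 6 libraries, 2 of them from the Col-0 wild type, 2 labelled *sap18* and 2 from *sr45*. SAP18 and SR45 are proteins that, together with ACINUS, form the ASAP complex, which acts in splicing. Seedlings of all groups were 11 days old by the series design, although a legend of the study makes them a day younger, and came from MS plates kept at 22°C, lit for 16 h and dark for 8 h a day, with no hormone or stress treatment named. By the methods, the *sap18* and *sr45* lines of the study each carry a T-DNA insertion of the SALK collection, 1 allele per gene. No rescued line was among the libraries. Descriptions of the second pair of libraries name *sap18*, as the study does, but their titles and genotype field name *sap18 sr45*. *SAP18* mRNA stood at 936 and 900.2 cRPKM in this pair against 76.6 and 83.7 in Col-0, which goes against a loss of the transcript. *SR45* stood at 20.9 and 23.1 against 23.1 and 19.4, so the *SR45* transcript was not lower either, unlike in *sr45*. The pair is therefore called the *sap18*-labelled pair, and every direction drawn from it carries that doubt. Where mutants or mutant libraries are named below, this pair is included by its label alone. Titles of the Col-0 and *sr45* samples also carry the word new, which those of this pair do not, and an effect of when or with what it was made cannot be told apart from its genotype. In *sr45* itself, *SR45* stood at 5.39 and 4.98 cRPKM, a 4.10-fold reduction (adjusted p = 6.88e-05 from limma).

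Cytokinin is sensed by membrane histidine kinases, from which phosphate passes over phosphotransfer proteins to response regulators in the nucleus. Type-B regulators are transcription factors that carry the response, and type-A genes are among their first targets. Type-A proteins hold a receiver domain without a DNA-binding region, and most of them dampen the pathway that induces them. *ARR7* and *ARR15* are a closely related pair known for roles in the stem cell niches of shoot and root, and *ARR6*, with *ARR7* and *ARR15*, is a gene that the meristem factor WUSCHEL represses. *ARR16* belongs with *ARR17* to a separate branch and is known from the stomatal lineage. Messenger RNA of type-A genes is widely used as a readout of cytokinin signaling, while the hormone itself was not measured here.

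The level of each gene is given as cRPKM, reads scaled to the mappable length of the gene and to the size of the library, which allows genes of unlike length to be compared. Reads behind a value could not be recovered because the authors had applied quantile normalization to the values, so the depth per gene is unknown and replicate libraries are the one source of error estimates. The 454 genes are the ones that passed the authors' own calling in 1 or both mutants. A gene could therefore hardly be in the table without a change, and the directions reported here largely restate that selection. The limma p-values come from the same libraries as that selection, so neither they nor their adjustment over the 454 genes account for it. Passing the threshold is thus no separate evidence of a change. Among 27443 protein-coding genes whose upstream sequence was read here, 427 were listed, so 0 listed genes in a short gene list says little. Of 10 type-A genes, 4 were listed, and these were picked with earlier results of these data known. The other 6 were not analysed here, and neither were the other 58 genes of the cytokinin lists, of which 0 were listed: 11 type-B and 2 type-C regulators, 3 receptors, 6 phosphotransfer proteins, 18 synthesis genes, 7 breakdown genes, 6 response factors and 5 further induced genes. Likewise, 0 of 9 shoot and leaf markers, 0 of 12 root markers, 0 of 11 clock genes and 0 of 8 nitrate response genes were listed, so the tissue label and the mix of organs could not be checked. In whole seedlings, fewer cells that express a gene and less RNA per cell cannot be told apart.

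All 4 genes have 5 exons in the RefSeq annotation of TAIR10.1. *ARR7* lies on chromosome 1 from 6577833 to 6579314 on the minus strand, and *ARR15* on the same chromosome and strand from 28131447 to 28133025. *ARR6* lies on chromosome 5 from 25252007 to 25254318 on the minus strand, and *ARR16* on chromosome 2 from 16969673 to 16972113 on the plus strand. Exon 3 is 78 bases long and coding in each of them, and it shows how alike the genes are at the level that reads have to separate. In the following lines *ARR7* is the reference, and capitals mark the bases that are not the same as in *ARR7*.
ARR7: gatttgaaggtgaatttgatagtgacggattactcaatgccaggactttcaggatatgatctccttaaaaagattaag
ARR15: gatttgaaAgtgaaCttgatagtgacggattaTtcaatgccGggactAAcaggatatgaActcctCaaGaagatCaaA
ARR6: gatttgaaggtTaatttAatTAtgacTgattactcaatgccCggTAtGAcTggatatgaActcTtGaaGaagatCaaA
ARR16: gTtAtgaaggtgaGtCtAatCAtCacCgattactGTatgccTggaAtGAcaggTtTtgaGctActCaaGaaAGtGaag
These exons lie on TAIR10.1 at chr1:6578427-6578504, chr1:28132120-28132197 and chr5:25253691-25253768, all minus strand, and at chr2:16970685-16970762, plus strand. From *ARR7*, 11 bases differed in *ARR15*, 17 in *ARR6* and 24 in *ARR16*. Over the aligned coding sequence, *ARR7* and *ARR15* were 79.0% identical, the most of any pair among the 4. The closest type-A gene to *ARR6* was *ARR5*, at 81.4%, and the closest to *ARR16* was *ARR17*, at 84.1%. In these 3 pairs the longest run of identical coding bases was 19, 20 and 23 bases, against reads of 150 bases stated in the series design. *ARR16* has a second annotated transcript in which exon 4 is 74 rather than 71 bases long, and the table gives 1 value for both.

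Each of the 4 genes was lower in all 4 mutant libraries than in both Col-0 libraries, as were 52.6% of the listed genes. For the *sap18*-labelled pair alone this held for 56.2% of the listed genes, and for *sr45* alone for 62.3%. Their summed level was 118 and 134 cRPKM in Col-0, 53.7 and 47.0 in the *sap18*-labelled pair, and 38.6 and 39.3 in *sr45*. The sums of the *sap18*-labelled pair lay above those of *sr45*, and 44.3% of the listed genes were higher in the former by limma. How many listed genes separate the 2 mutants without overlap was not counted. On average the sum fell to 39.9% of Col-0 in the *sap18*-labelled pair and to 30.9% in *sr45*.

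**Figure D1:**
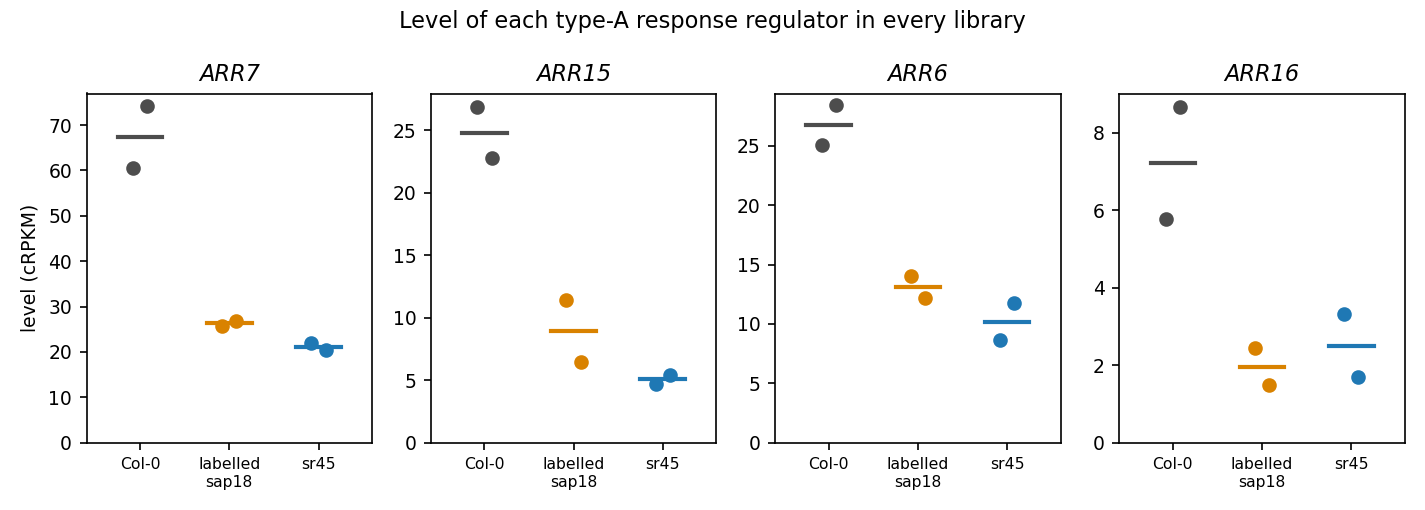
Level of *ARR7*, *ARR15*, *ARR6* and *ARR16* (cRPKM, linear axes that start at 0 and differ between panels) in each library. Points are libraries and bars are the means of 2. In each panel the 4 mutant points lie below both Col-0 points, and the pairs of *ARR6*, *ARR7* and *ARR15* in the *sap18*-labelled pair lie above those in *sr45*. How common the latter order is among the listed genes was not counted.

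*ARR7*, the most abundant of the 4, had 60.5 and 74.3 cRPKM in Col-0, 25.8 and 26.9 in the *sap18*-labelled pair, and 21.9 and 20.4 in *sr45*. Replicates of the mutants lay close together, and both mutants lay below Col-0, with *sr45* the lower of them. The share of listed genes that separate all 3 genotypes was not counted. Its mean was 2.55-fold lower than Col-0 in the *sap18*-labelled pair, a log2 change of -1.31 (95% interval -1.69 to -0.94, adjusted p = 0.000617 from limma), and 3.18-fold lower in *sr45*, a log2 change of -1.62 (-1.99 to -1.25, adjusted p = 0.00011). Among the 454 genes it had rank 29 from the lowest log2 change in the former and rank 38 in the latter.

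*ARR15*, the paralog of *ARR7*, had 26.8 and 22.8 cRPKM in Col-0, 11.4 and 6.42 in the *sap18*-labelled pair, and 4.70 and 5.44 in *sr45*. The spread was widest in the *sap18*-labelled pair, where the higher value was 1.78 times the lower, against a median of 1.11 and a 90th percentile of 1.36 over all listed genes. *ARR15* showed the strongest fall of the 4 genes in *sr45*, 4.89-fold (log2 change -2.09, 95% interval -2.66 to -1.51, adjusted p = 0.00021 from limma), and its rank from the lowest was 15. In the *sap18*-labelled pair it was 2.78-fold lower than Col-0 (log2 change -1.42, interval -1.99 to -0.85, adjusted p = 0.00186).

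*ARR6*, which is known for its part in cell wall composition and disease resistance beside cytokinin signaling, had 25.1 and 28.4 cRPKM in Col-0, 14.0 and 12.2 in the *sap18*-labelled pair, and 8.63 and 11.7 in *sr45*. Col-0 stood apart from both mutants, while the nearest libraries of the mutants differed little. It was 2.04-fold lower in the *sap18*-labelled pair, the smallest log2 change of the 4 there (-0.97, 95% interval -1.40 to -0.54, adjusted p = 0.00251 from limma). In *sr45* it was 2.62-fold lower (log2 change -1.32, interval -1.75 to -0.89, adjusted p = 0.000366).

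*ARR16*, the gene of the separate branch, was the lowest in every library, with 5.79 and 8.65 cRPKM in Col-0, 2.44 and 1.49 in the *sap18*-labelled pair, and 3.32 and 1.69 in *sr45*. The mutants overlapped with each other, and the *sr45* libraries differed 1.96-fold. Its mean was 3.68-fold lower in the *sap18*-labelled pair (log2 change -1.47, 95% interval -2.13 to -0.81, adjusted p = 0.00263 from limma) and 2.88-fold lower in *sr45* (log2 change -1.25, interval -1.91 to -0.59, adjusted p = 0.00331). At these levels the pseudocount of 1 shrinks the log2 change: with 0.1 it was -1.84 and -1.54, and with 5 it was -0.80 and -0.70.

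Thus, by limma at an adjusted p of 0.05, all 4 genes were lower in the *sap18*-labelled pair, where 45.8% of the listed genes were lower, and all 4 were lower in *sr45*, where 61.0% were. The median log2 change of the 4 was -1.37 in the *sap18*-labelled pair and -1.47 in *sr45*, against -0.38 and -0.96 over all 454 genes. When each library was centred on the median of the listed genes, the 4 log2 changes lay between -1.27 and -0.78 in the *sap18*-labelled pair and between -1.53 and -0.69 in *sr45*, and each still passed (highest adjusted p = 0.039, for *ARR16* in *sr45*). Under that scaling, 35.7% of the listed genes were lower in the *sap18*-labelled pair and 45.8% in *sr45*. The 2 comparisons share their Col-0 libraries and are no separate evidence. With 2 libraries a genotype, an exact permutation of 2 against 2 cannot give a two-sided p below 0.333, so these calls rest on the spread that limma pooled over genes and genotypes. Nothing in the sources says whether libraries of a genotype came from separate plantings, and the p-values cover the variation among these libraries alone, part or all of which may be technical.

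**Figure D2:**
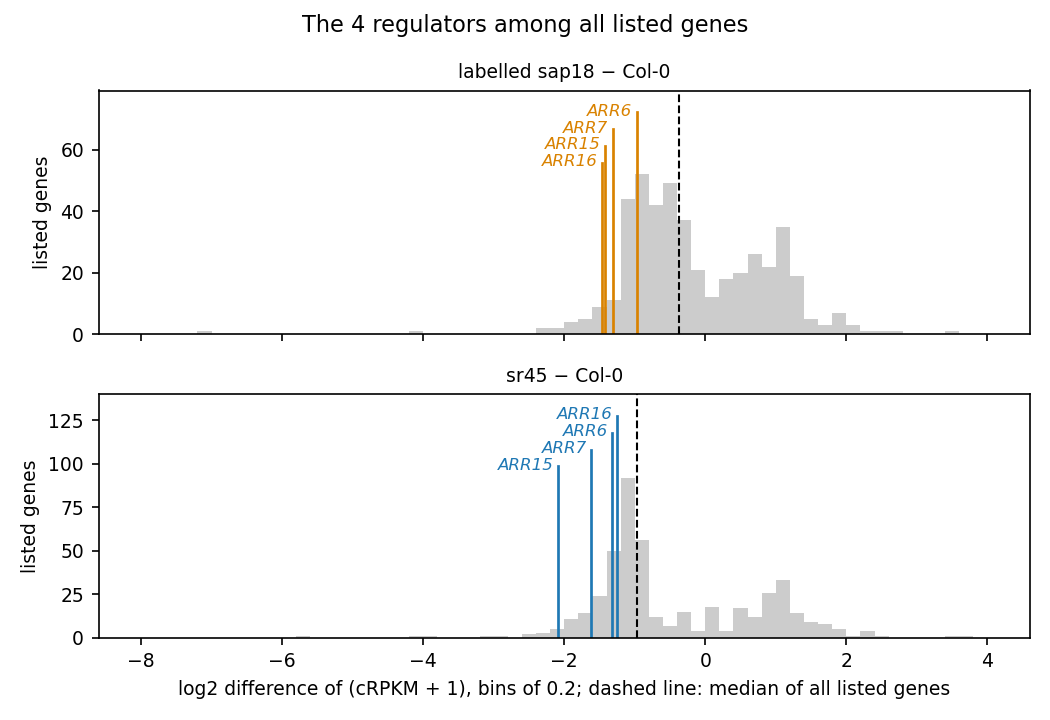
Histograms of the log2 difference from Col-0 (log2 of cRPKM + 1, bins of 0.2) for all 454 listed genes, in the *sap18*-labelled pair (upper panel) and in *sr45* (lower panel). Coloured lines mark the 4 regulators and the dashed line the median of the listed genes, -0.38 and -0.96. All 4 regulators lie to the left of the median in both panels, with *ARR15* farthest out in *sr45* at -2.09.

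The fold criterion, which the methods state for the other mutants of the study, asks that all 4 ratios of a mutant to a Col-0 library be at least 2 in one direction, above 5 cRPKM in both libraries of 1 group. It gave a more uneven picture, as 2 of the 4 genes met it in the *sap18*-labelled pair (background 10.6%) and 3 in *sr45* (30.2%). *ARR7* met it in both, with mutant-to-Col-0 ratios of 0.348 to 0.445 and 0.275 to 0.363. *ARR16* met it in the *sap18*-labelled pair (highest ratio 0.421) but not in *sr45* (0.573), and *ARR6* the other way round, with highest ratios of 0.561 and 0.469. *ARR15* missed it in the *sap18*-labelled pair by a highest ratio of 0.502 and met it in *sr45* with 0.239. In each miss, 1 of the 4 ratios stood above 0.5 and the others below it. Without labelled *sap18* replicate 1, all 4 met it in that comparison, as did 66 of the 454 genes in the lower direction, against 48 with all libraries. All 4 also met it in *sr45* without Col-0 replicate 1 (187 of the 454 genes lower) or without *sr45* replicate 1 (192), against 137 with all libraries. As fewer ratios are then required, these numbers could only rise or stay. Centred on the median of the listed genes, only *ARR7* met it in the *sap18*-labelled pair and only *ARR15* in *sr45*. The listed genes then split into 26 lower and 72 higher in the former and 30 lower and 108 higher in the latter, against 48 and 42, and 137 and 52, without centring. In both directions, the uncentred criterion called 90 listed genes in the *sap18*-labelled pair and 189 in *sr45*. These are too few to make up the 454 genes, so the criterion as read here, with all 4 ratios required, cannot be the rule that made the list. A reading that pairs same-numbered libraries was not tried. By the ratio of group means at 2-fold, 186 and 357 listed genes were called, 99 and 257 of them lower. All 4 regulators were among the lower ones in both comparisons. The totals called by this ratio lie close to the numbers of changed genes that the study gives for these comparisons. The ratio of means may thus be near the rule that made the list, which was not tested. A place among its calls therefore largely restates the selection and is no separate evidence of a change.

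Set directly against each other, the mutants differed beyond the threshold in *ARR15* alone, by 0.66 on the log2 scale (*sap18*-labelled pair minus *sr45*, 95% interval 0.09 to 1.24, adjusted p = 0.0489 from limma). In the same contrast, 44.3% of the listed genes were higher in the *sap18*-labelled pair and 14.1% lower, with a median of 0.40 over all listed genes. This call was lost under 9 of 13 alternatives, which are not all separate checks. Comparing only the 2 genotypes and leaving out either Col-0 library gave the same fit for this contrast. Without labelled *sap18* replicate 1, the higher of that pair, the difference was 0.29 (adjusted p = 0.31). It was lost as well without either Col-0 library (adjusted p = 0.0713) and without either *sr45* library (0.136 without replicate 1, 0.0706 without replicate 2). *ARR6* and *ARR7* differed by 0.35 (interval -0.08 to 0.78, adjusted p = 0.134) and 0.30 (-0.07 to 0.68, adjusted p = 0.13), and *ARR16* by -0.22 (-0.88 to 0.44, adjusted p = 0.512). *ARR6* passed without *sr45* replicate 2 (0.55, adjusted p = 0.0435), while without *sr45* replicate 1 its difference was 0.14 (adjusted p = 0.525). Centred on the median of the listed genes, the differences of *ARR6* and *ARR7* turned to -0.02 and -0.06, and that of *ARR15* was 0.30 (adjusted p = 0.371). The intervals leave room for differences of up to 0.78 in *ARR6* and 0.68 in *ARR7*, so the libraries do not show that the mutants act alike on them.

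**Figure D3:**
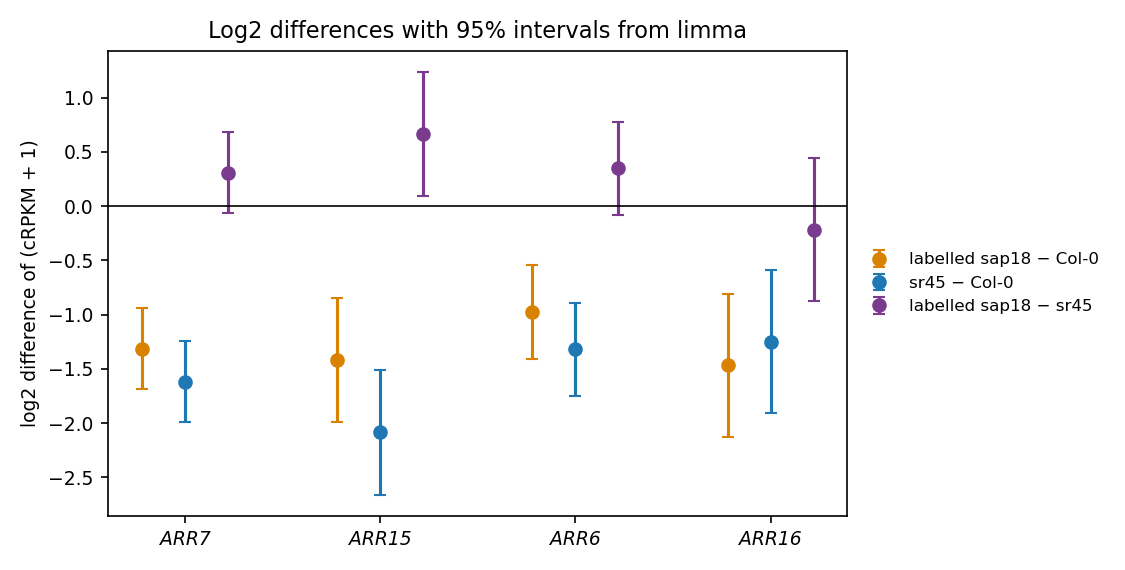
Log2 differences (log2 of cRPKM + 1) of each regulator in the 3 contrasts, with 95% intervals from limma over 6 libraries. Points are estimates, and the line at 0 marks no difference. Every interval against Col-0 lies below 0, and of the 4 between the mutants that of *ARR15*, from 0.09 to 1.24, lies above it.

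The order of the genes changed little. *ARR7* was the highest and *ARR16* the lowest of the 4 in every library, and *ARR6* stood above *ARR15* in 5 libraries, the exception being Col-0 replicate 1. In Col-0 the levels of *ARR6* and *ARR15* did not differ beyond their spread, at 26.7 ± 2.37 and 24.8 ± 2.88 cRPKM (SD, n = 2 libraries each). *ARR7* made up 48.1% to 57.3% of the summed level over the 6 libraries, with no genotype standing apart. *ARR15* gave 22.7% and 17.0% of it in Col-0, 21.3% and 13.7% in the *sap18*-labelled pair, and 12.2% and 13.9% in *sr45*. The *sr45* values lay below both Col-0 values, and the other pairs overlapped. *ARR6* gave 21.2% in each Col-0 library and between 22.4% and 29.9% in the mutants. The ratio of *ARR6* to *ARR15* was accordingly 0.934 and 1.25 in Col-0, 1.23 and 1.90 in the *sap18*-labelled pair, and 1.84 and 2.16 in *sr45*.

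**Figure D4:**
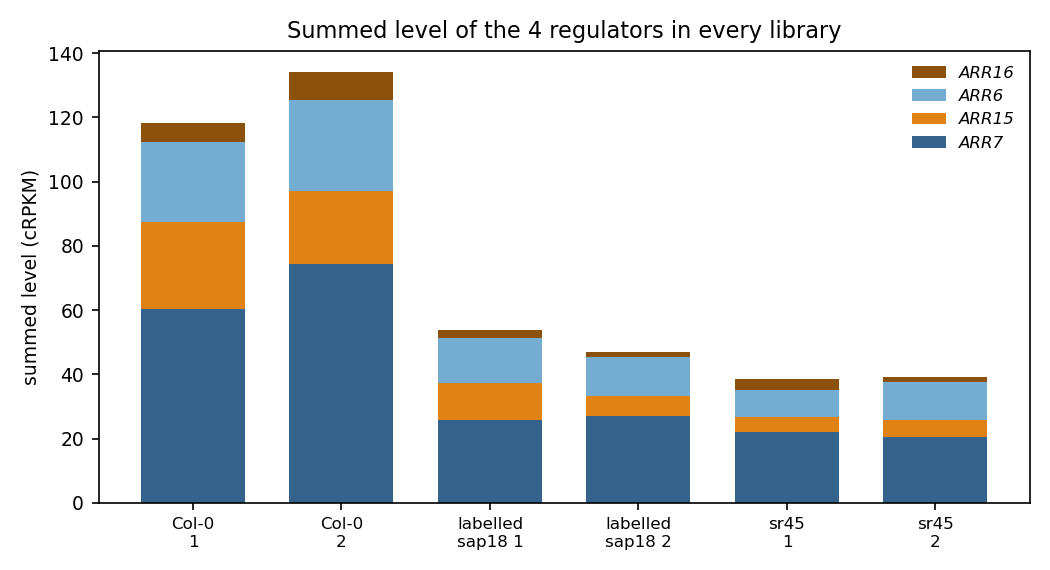
Summed level of the 4 regulators (cRPKM, stacked bars from 0) in each of the 6 libraries, split by gene. *ARR7* is the bottom and tallest part of every bar, and the sums go from 118 and 134 cRPKM in Col-0 to between 38.6 and 53.7 in the mutants.

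For each regulator, the 3 listed genes with the nearest profile were found by the mean absolute difference of their log2 ratios to the Col-0 mean over the 4 mutant libraries. This measure describes likeness within 6 libraries and in a table full of lower genes. Nearest to *ARR7* were *GLO3* (0.07), which is *HAOX2* in RefSeq, *SAMC1* (0.11), a carrier of S-adenosylmethionine, and the trypsin inhibitor gene *ATTI3* (0.12). For *ARR6* they were *BGLU5* (0.08), the ACT domain gene *ACR4* (0.09) and *PAP12* (0.11), a plastid lipid-associated protein gene. *ARR15* and *ARR16* had less close company, and no listed gene lay within 0.2 of either, against 28 genes for *ARR6* and 13 for *ARR7*. The measure is taken over single libraries, so spread between replicates can add to it. In the *sap18*-labelled pair replicates differed 1.78-fold for *ARR15* and 1.64-fold for *ARR16*, against 1.15 for *ARR6* and 1.04 for *ARR7*. In *sr45* the values were 1.16 and 1.96, against 1.36 and 1.08. The nearest to *ARR15* were *CBP60F* (0.20), AT1G11930 (0.23) and AT1G29600 (0.29). Those of *ARR16* were the long non-coding RNA AT5G01175 (0.22), AT5G66480 (0.26) and the iron-sulfur protein gene *INDL* (0.26), which is *INDH* in RefSeq. Between the regulators themselves the measure ran from 0.32, for *ARR7* with *ARR16* and with *ARR6*, to 0.61 for *ARR6* with *ARR15*. The paralogs *ARR7* and *ARR15* were 0.43 apart, farther than *ARR7* was from either of the others.

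None of the 4 genes lay beside another of them. *ARR7* lies 0.899 Mb from *SR45* on chromosome 1, and *ARR16* lies 1.83 Mb from *SAP18* on chromosome 2. Whether sequence linked to either insertion takes part in their levels was not tested. The listed gene nearest to *ARR7* was AT1G19020, 9.13 kb away. Its log2 change was 1.52 in the *sap18*-labelled pair (adjusted p = 0.00234 from limma) and -0.27 in *sr45* (adjusted p = 0.389). These neighbours thus went in opposite directions in the former. The other nearest listed genes were farther away. AT2G40530, 41.4 kb from *ARR16*, was higher in both mutants, with log2 changes of 0.81 and 1.19 (adjusted p = 0.00383 and 0.000405 from limma, *sap18*-labelled pair first). *RRA1*, 63.8 kb from *ARR15*, was lower in both, at -0.81 and -0.98 (adjusted p = 0.00889 and 0.00242). *RGLG3*, 352 kb from *ARR6*, was lower in both as well, at -1.78 and -1.56 (adjusted p = 0.000347 and 0.000248).

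Because the 4 genes were lower together, the 250 bases upstream of each annotated start are shown, read along the strand of the gene and ending at the base before the start. Type-B regulators are known to bind a short core, searched here as AGATT or AGATC, or with G in place of the first letter as GGATT or GGATC, on both strands, and the capitals mark every match. The sequences are from RefSeq on TAIR10.1, at chr1:6579315-6579564 and chr1:28133026-28133275 on the minus strand for *ARR7* and *ARR15*, chr5:25254319-25254568 on the minus strand for *ARR6*, and chr2:16969423-16969672 on the plus strand for *ARR16*.
ARR7: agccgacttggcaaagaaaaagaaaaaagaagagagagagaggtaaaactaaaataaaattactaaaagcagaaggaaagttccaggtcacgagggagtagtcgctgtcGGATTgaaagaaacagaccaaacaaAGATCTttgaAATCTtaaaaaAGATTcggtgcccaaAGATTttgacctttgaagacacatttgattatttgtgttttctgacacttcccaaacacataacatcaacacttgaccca
ARR15: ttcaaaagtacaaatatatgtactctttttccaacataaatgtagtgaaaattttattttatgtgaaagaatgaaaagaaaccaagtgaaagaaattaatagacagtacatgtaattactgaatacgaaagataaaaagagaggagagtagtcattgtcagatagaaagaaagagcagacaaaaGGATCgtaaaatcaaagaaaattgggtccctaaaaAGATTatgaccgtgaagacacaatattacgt
ARR6: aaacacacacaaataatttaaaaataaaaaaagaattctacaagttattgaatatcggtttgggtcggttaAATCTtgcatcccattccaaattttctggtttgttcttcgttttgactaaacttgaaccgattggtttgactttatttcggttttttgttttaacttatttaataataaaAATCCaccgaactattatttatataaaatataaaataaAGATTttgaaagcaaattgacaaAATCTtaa
ARR16: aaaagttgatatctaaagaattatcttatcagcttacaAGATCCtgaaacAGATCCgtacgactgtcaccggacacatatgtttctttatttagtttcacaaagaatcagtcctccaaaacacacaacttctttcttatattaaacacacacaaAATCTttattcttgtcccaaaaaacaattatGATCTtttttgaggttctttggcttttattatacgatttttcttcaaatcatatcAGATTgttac
The core occurred 6 times in *ARR7*, 2 times in *ARR15*, 4 times in *ARR6* and 7 times in *ARR16*, counting each strand. Matches on opposite strands that overlap in 1 capital stretch were counted separately. Of 27443 promoters of protein-coding genes, 85.2% held it, with a median of 2, so its presence is common. At least as many matches as in *ARR7* were found in 3.92% of all promoters, as in *ARR16* in 1.49%, as in *ARR6* in 18.9% and as in *ARR15* in 60.3%. With a further A in front (AAGATT or AAGATC, each of which holds the core), there were 5 matches in *ARR7*, 1 in *ARR15*, 3 in *ARR6* and 3 in *ARR16*, and 38.9% of all promoters held at least 1. Among the 427 promoters of listed genes, the shares were 83.1% for the core and 35.1% for the longer form. *ARR15* had the fewest core matches of the 4 and *ARR16* the most, and a relation of matches to the size of the fall was not tested. A match is a stretch of letters and not a shown binding site.

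**Figure D5:**
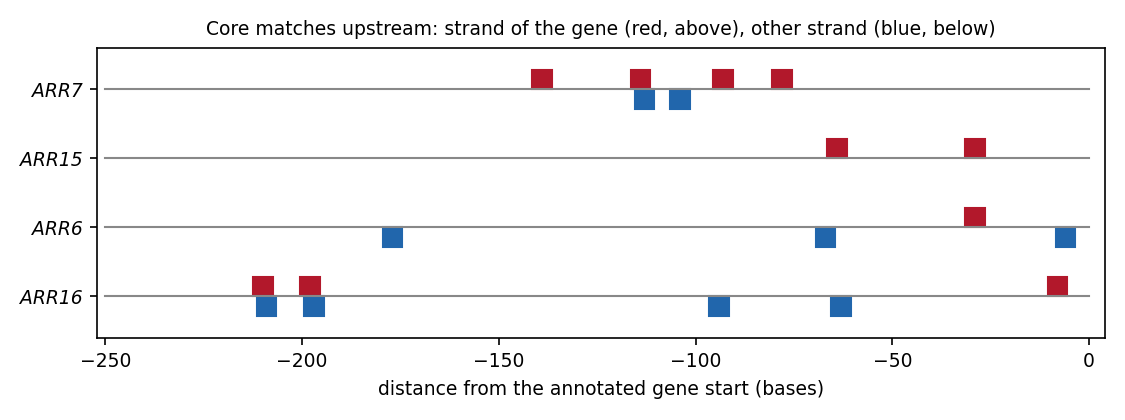
Positions of the core matches in the 250 bases upstream of each regulator, as distance from the annotated start in bases. Blocks above a line are on the strand of the gene and blocks below it on the other strand. *ARR7* has 6 matches and *ARR15* 2.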

How the data were processed

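RNA-seq of whole seedlings gave 6 libraries, 2 per genotype label, grouped by the sample descriptions. The authors quantified mRNA with vast-tools 2.5, whose araTha10 library extends Ensembl Plants 31 (TAIR10 in the submitters' processing notes), and deposited cRPKM, a form of RPKM per mappable kilobase, after quantile normalization, over which libraries is not given in the sources used here. The series design states stranded mRNA libraries, paired 150-base reads and a depth of 30M reads for each sample. The number of value columns without a sample is 0.

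A two-sided limma 3.58.1 fit in R 4.3.3 took in log2(cRPKM + 1) of 454 genes in all 6 libraries, with Benjamini-Hochberg adjustment over the genes of each contrast. The fold criterion is the one stated for the other mutants of the study, read as all 4 ratios and applied without its minimum of reads. On simulated data for the *sap18*-labelled pair against Col-0 with 454 genes, limma recovered 54 of 65 genes set to a 2-fold change, 64 of 67 set to 3-fold and 68 of 68 set to 4-fold, and called 4 of 254 unchanged ones, and the fold criterion called 18, 59, 63 and 1. Members and gene lists were chosen with earlier results of these data known. Named genes were the 4 regulators, the targeted genes, listed members of the cytokinin lists and the 3 nearest profiles per regulator; the listed gene nearest on the chromosome was added after its values were seen. Of 454 loci, 450 were found in the RefSeq table of TAIR10.1, whose annotation and sequence were read with Python 3.11.15 and Biopython 1.88 (coding sequences aligned globally). Alternatives covered the pseudocount, the filter, the samples fitted, the variance model, a replicate block, centring, the fold threshold, the ratio, the minimum level and each library left out.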

Additional observations from a re-analysis of the deposited data

Results flagged for a closer look

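*ARR15* was marked for a closer look because its change from Col-0 was not the same in the mutants by limma: it was 0.664 higher on the log2 scale in the *sap18*-labelled pair than in *sr45* (adjusted p = 0.0489), with 11.4 and 6.42 cRPKM against 4.70 and 5.44. Both *sap18*-labelled libraries lay above both *sr45* libraries. In this contrast, 44.3% of the listed genes were higher in the former by limma, and the median over all of them was 0.40. How many listed genes separate the mutants in this way was not counted. The call was lost under 9 of 13 alternatives, which are not all separate checks. Centred on the median of the listed genes, the difference was 0.30 (adjusted p = 0.371 from limma). Without labelled *sap18* replicate 1 it was 0.29. The cause of the difference was not tested.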

How the results depend on the processing

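All 4 regulators were lower than Col-0 and passed limma in both mutants under each of 13 alternatives, with log2 changes from -1.84 to -0.78 in the *sap18*-labelled pair and from -2.27 to -0.69 in *sr45*. Most listed genes passed there too, 261 to 361 of 454 and 361 to 405 of 454 in either direction. The filter above 5 cRPKM kept all 454 genes and changed nothing. Leaving out a library of the third genotype gave the same fit as comparing only the 2 genotypes of a contrast. The 13 alternatives are therefore not all separate checks. Between the mutants, 0 regulators passed with a pseudocount of 0.1 or 5, with only the 2 genotypes compared and with centring, where *ARR6* (-0.0163) and *ARR7* (-0.0579) turned sign, and 0 to 1 passed with a library left out. *ARR16* turned to 0.01 without labelled *sap18* replicate 2 and to 0.12 without *sr45* replicate 1 (range over libraries left out -0.56 to 0.12). That range was 0.14 to 0.55 for *ARR6*. Listed genes that differed between the mutants numbered 265, and 146 to 265 with a library left out. Centring moved the share of lower calls from 61.0% to 51.3% in the *sap18*-labelled pair (162 of 316), from 68.9% to 57.6% in *sr45* and from 24.2% to 57.1% between the mutants. In these listed genes a shift of scale and real change cannot be told apart.

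By the fold criterion, with regulators counted as lower and listed genes in both directions, the *sap18*-labelled pair gave 4 regulators and 251 genes (149 lower) at 1.5-fold, 0 and 23 (10 lower) at 3-fold, 4 and 186 (99 lower) by the ratio of means, 1 and 62 (35 lower) above 10 cRPKM, 1 and 98 (26 lower) with centring, and 2 to 4 regulators and 90 to 149 genes with a library left out. The main counts were 2 and 90 (48 lower). In *sr45*, against 3 and 189 (137 lower), they were 4 and 364 (264 lower) at 1.5-fold, 1 and 51 (33 lower) at 3-fold, 4 and 357 (257 lower) by the ratio of means, 1 and 138 (30 lower) with centring, and 3 to 4 regulators and 189 to 258 genes with a library left out.

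The replicate numbers are shared by label only: deviations of same-numbered libraries correlated at -0.03, -0.11 and 0.08 between pairs of genotypes. With a replicate block, 4, 4 and 1 regulators and 341, 405 and 261 genes passed in the 3 contrasts. With the *sr45* numbers crossed, a setting chosen after seeing the data, 4 regulators and 403 genes passed in *sr45* against Col-0.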
